A study of Mus musculus with 10 samples.

Results

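The comparison described here set CD4+ T cells from the spleens of dendritic cell injected mice against CD4+ T cells from the spleens of naive mice. It held 4 of the 10 arrays of the series, 2 from injected and 2 from naive mice, and its members were taken from the sample titles, with no measured value used. All mice were DBA/1, an inbred strain used for models of arthritis. The injected mice were given immature dendritic cells by the intraperitoneal route, 500000 cells each time, at 7, 5 and 3 days before they were killed, and the naive mice had received none. The labels give no group injected with another cell or with medium alone, so that the injection and the dendritic cells cannot be told apart. CD4+ cells were enriched by magnetic depletion of other cells, then sorted by flow cytometry after staining for CD4, CD25 and CD49b. The labels do not say whether the CD4+ sort kept or removed CD49b+ and CD25+ cells. Cells of several mice were pooled before the sort, and nothing says that replicates came from separate pools, so the p-values measure the spread between these arrays, which may be technical. The other 6 arrays held CD49b+ and CD25+ cells sorted from injected mice, 3 of each, and served here to estimate the spread and to show each gene's level elsewhere.

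CD4+ T cells of the spleen are a mixture of naive cells, which circulate and wait for antigen, and of smaller populations with a history of activation. These include memory cells, regulatory T cells that restrain other lymphocytes, and follicular helper T cells that move into B cell follicles and support antibody responses there. Dendritic cells take up antigen, cut it into peptides and show the peptides on MHC class II molecules, which is the form CD4+ T cells recognise. Immature dendritic cells carry little costimulation and are known for their use in inducing tolerance. Mouse T cells make little MHC class II themselves, whereas B cells, dendritic cells and macrophages make much of it.

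Expression is given on the log2 scale, where 1 unit stands for 2-fold. A gene was represented by 1 probe set and was called where limma, fitted across all genes, gave a Benjamini-Hochberg adjusted p under 0.05. Of 11037 genes tested, 150 were lower in cells of injected mice (1.36%) and 3 were higher (0.0272%), which made 153 calls in all (1.39%). With every array centred on the median of the genes tested, the counts were 106 lower and 16 higher, which moved the share of higher calls from 1.96% to 13.1% and shifted all differences by 0.10. At an unadjusted p under 0.05 the counts were 1095 lower (9.92%) and 270 higher (2.45%). Of the called genes, 68 were lower by at least 2-fold (0.616%) and 0 were higher by that much. The median difference of the 150 lower genes was -0.90 and the smallest was -0.46, against a median over all tested genes of -0.03 and a median standard error (SE) of 0.12. Both injected arrays lay under both naive arrays for 30% of all genes and above them for 18.6%, so that groups without overlap were common.

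Naive replicate 2 stood apart among the genes that were called. It read above naive replicate 1 for 147 of the 150 lower genes (98%), against 57.3% of all genes tested. Its level exceeded that of naive replicate 1 by a median of 0.23 over the lower genes and of 0.02 over all genes. With limma refitted without it, 16 genes were called lower, all of them among the 150. Without injected replicate 1, 30 were called, 29 of them among the 150. Without naive replicate 1 the count was 101 (88 shared), and without injected replicate 2 it was 114 (87 shared). All 150 differences stayed negative in these 4 fits. When the 4 CD4+ arrays were fitted alone, limma called 0 genes in either direction, with 1305 lower and 432 higher at an unadjusted p under 0.05. The signal of Gapdh probe sets at the 3' end minus that at the 5' end, a sign of RNA quality, was -0.01 and 0.06 in the naive and 0.26 and 0.13 in the injected arrays. The same measure for Actb was 0.42 and 0.5 in the naive and 0.56 and 0.5 in the injected arrays. The part of RNA quality in the results was not tested.

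**Figure D1:**
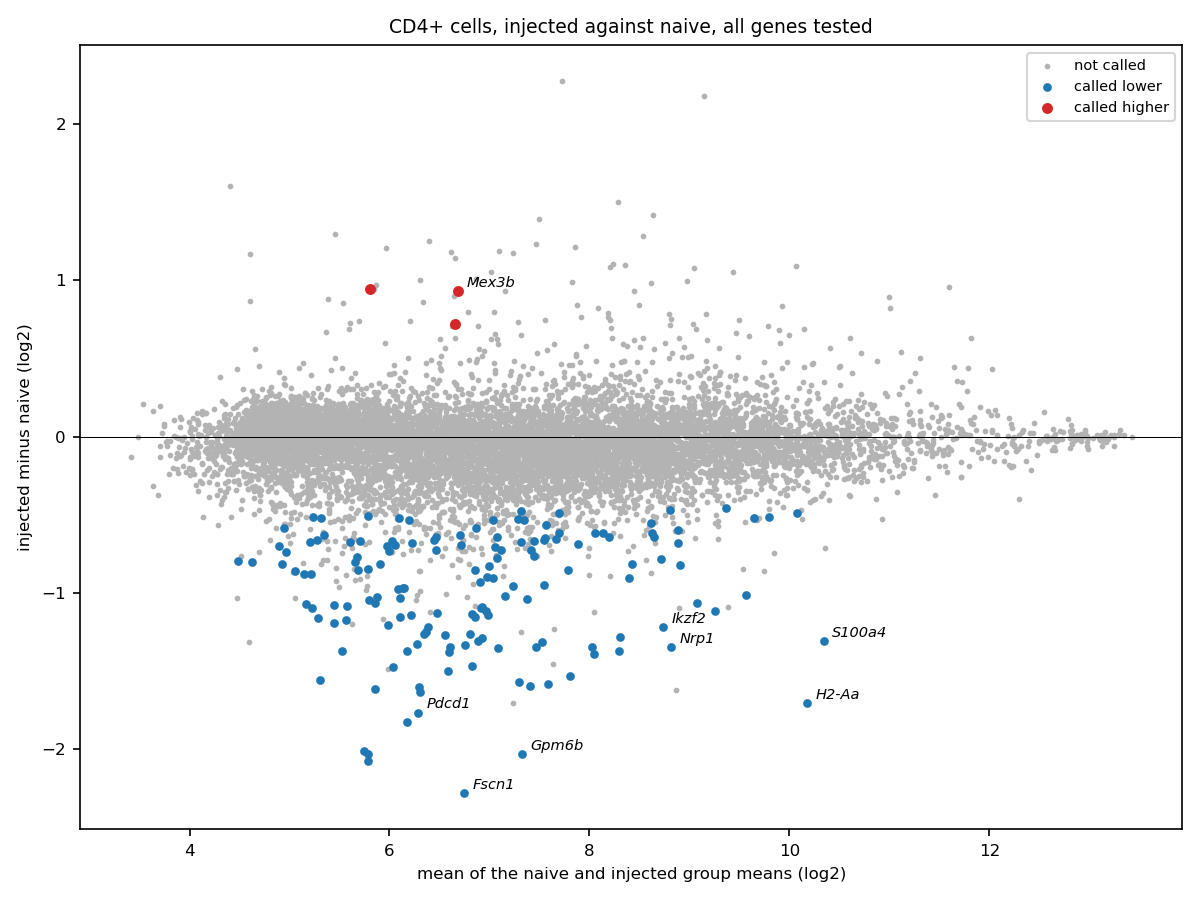
Each point is a gene: the horizontal axis is the average of the 2 group means of its log2 values, the vertical axis is injected minus naive on the log2 scale, and called genes are coloured. The 150 called lower (blue) spread below the axis down to -2.28 for Fscn1, while the 3 called higher (red) lie under 1.

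The label CD4+ was checked against Cd4 and Cd3e. Cd4, the coreceptor for MHC class II, read 7.72 and 7.72 in the naive arrays and 7.55 and 7.54 in the injected arrays (-0.17 ± 0.11, SE, n = 2 and 2; limma adjusted p = 0.622). Cd3e, a signalling chain of the T cell receptor complex, read 9.50 and 9.43 against 9.44 and 9.49, with overlapping groups and a 95% interval of the difference from -0.29 to 0.29. Of the 20 tested genes of the T cell receptor complex and its proximal signalling, 0 were called, with a median difference of -0.09. This median was -0.01 without injected replicate 1, -0.05 without naive replicate 2, and 0.02 with the arrays centred on the median of the genes tested. Of the other markers stained for, Il2ra, which encodes CD25, read from 4.15 to 4.19 in both groups, under the array medians of about 4.8. Itga2, which encodes CD49b, lay above those medians, at 5.76 and 5.68 in naive and 5.80 and 5.85 in injected cells.

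The set least dependent on single arrays was the 15 genes that were called lower whichever of the 4 CD4+ arrays was left out (0.136% of the genes tested). Gpm6b, a membrane glycoprotein of the proteolipid family, had the smallest adjusted p of this set. It read 8.14 and 8.54 in naive against 6.23 and 6.39 in injected cells (-2.03 ± 0.13, limma adjusted p = 0.000479). Sostdc1, a secreted inhibitor of BMP and Wnt signals, read 6.39 and 7.24 against 4.57 and 4.92 (-2.07 ± 0.24, limma adjusted p = 0.00453). Another tested probe set of Sostdc1 gave -0.78 and was not called. In both genes the naive arrays stood more than 1 unit above the injected ones, and the injected mean of Sostdc1 lay under the array medians, with replicate 1 under its own and replicate 2 above it. Pdcd1, the gene of the inhibitory receptor PD-1, read 6.96 and 7.38 against 5.45 and 5.36 (-1.77 ± 0.16, limma adjusted p = 0.00228). Ccnd1, the gene of cyclin D1, which drives entry into the cell cycle, read 8.22 and 8.54 against 6.75 and 6.84 (-1.58 ± 0.16, adjusted p = 0.00228).

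Several of the 15 are known from myeloid and antigen-presenting cells. Itgax, which encodes the CD11c integrin chain of dendritic cells, read 7.36 and 7.70 in naive against 6.43 and 6.39 in injected cells (-1.12 ± 0.11, limma adjusted p = 0.00228). Mmp12, the macrophage elastase, read 6.81 and 7.17 against 5.80 and 5.68 (-1.25 ± 0.12). Themis2, a signalling adaptor of B cells and macrophages, read 6.66 and 7.07 against 5.54 and 5.45 (-1.37 ± 0.14). In all 3 genes both injected arrays lay under both naive ones. Tgfbi, a matrix protein induced by TGF-beta, read 5.69 and 6.04 against 4.64 and 4.77, the latter under the array medians. It passed the filter on dim genes through the 2 naive arrays alone, so its place among the 15 is no independent sign of a difference.

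The others of the 15 have varied roles. Marcks, an actin-binding substrate of protein kinase C, read 6.43 and 7.07 against 4.88 and 4.60 (-2.01 ± 0.20). H2-Q1, a class Ib gene of the MHC, read 6.60 and 7.0 against 4.49 and 5.06 (-2.03 ± 0.19). Sash1, a scaffold protein, differed by -1.60 ± 0.13 and Slc46a3, a lysosomal transporter, by -1.31 ± 0.14. Ifitm6, of the interferon-induced transmembrane family, differed by -1.20 ± 0.12, the ubiquitin-conjugating enzyme gene Ube2e2 by -1.18 ± 0.12 and the cytochrome P450 gene Cyp4f16 by -1.04 ± 0.10. Cyp4f16 was the most even of the set, at 7.89 in both naive arrays and at 6.87 and 6.83 in the injected ones.

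**Figure D2:**
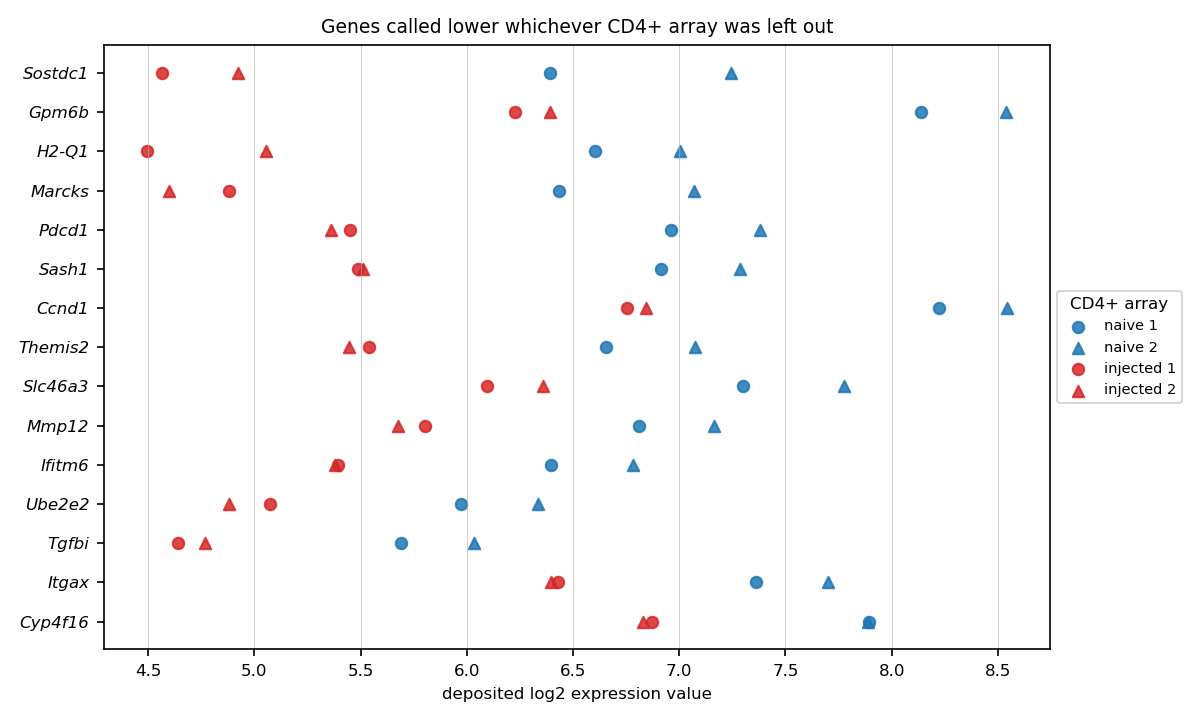
Deposited log2 values (horizontal axis) of the 15 genes called lower whichever CD4+ array was left out, with 1 point per array. Both red points of injected mice lie to the left of both blue points of naive mice in every row, and naive replicate 2 (blue triangle) is the highest in all but Cyp4f16.

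MHC class II genes were the group with the largest shift. Of 17 tested genes of class II presentation, 8 were called lower and 0 higher (47.1% of the list, against 1.36% of all genes), with a median difference of -1.25 against -0.03 over all genes. The 8 include Ciita, which entered the test through the naive arrays alone and so adds no independent support to the count. Of the 17, 15 had both injected arrays under both naive arrays, as had 30% of all genes. The count fell to 0 without naive replicate 2 and to 1 without injected replicate 1, and it was 4 without naive replicate 1 and 8 without injected replicate 2. Summed over the list on the linear scale, the level was 8013 and 9036 in the naive arrays and 4276 and 4860 in the injected arrays.

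The chains that form the peptide-presenting dimer are described first. H2-Aa, the alpha chain of the I-A molecule, read 10.96 and 11.10 in naive against 9.14 and 9.51 in injected cells (-1.70 ± 0.31, limma adjusted p = 0.0314). A second probe set of H2-Aa was also called, at -1.11. The call of the first was lost without any 1 of the 4 CD4+ arrays, with adjusted p from 0.0746 to 0.321. H2-Ab1, the beta chain, read 9.61 and 9.74 against 7.87 and 8.24 (-1.62 ± 0.38) and was not called (adjusted p = 0.0888). Cd74, the invariant chain that guides class II to the endosome, read 8.69 and 8.80 against 7.18 and 7.52 (-1.39 ± 0.22, limma adjusted p = 0.0165). Leaving out naive replicate 1 raised its adjusted p to 0.0693, naive replicate 2 to 0.208 and injected replicate 1 to 0.113.

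Of the genes that load and edit the peptide, 5 were called lower (H2-DMb2, H2-Oa, H2-Ob, Ifi30 and Ctsh), while H2-DMa (-1.12, limma adjusted p = 0.0954), Ctss (-0.36, adjusted p = 0.163) and Lgmn (0.11, adjusted p = 0.709) were not called and H2-DMb1 was too dim to be tested. H2-DMb2, a chain of the H2-DM peptide exchanger, read 7.12 and 7.45 against 5.76 and 6.06 (-1.38 ± 0.23, limma adjusted p = 0.0192), and its other tested probe set was called at -1.28. H2-Ob, a chain of H2-DO, which tempers H2-DM, read 8.39 and 8.76 against 7.20 and 6.89 (-1.53 ± 0.20, limma adjusted p = 0.00741). H2-Ob was called in 3 of the 4 fits that left out an array, and not without naive replicate 2 (0.112). H2-DMb2 was not called without naive replicate 2 (0.249) or injected replicate 1 (0.132). The partner chain H2-Oa was called at -1.33 ± 0.23 (adjusted p = 0.0251) but not without naive replicate 1 (0.0692), naive replicate 2 (0.303) or injected replicate 1 (0.143). Ifi30, a thiol reductase of the lysosome, was called at -1.28 ± 0.25 (adjusted p = 0.0437) but not without naive replicate 1 (0.078), naive replicate 2 (0.47) or injected replicate 1 (0.21). H2-Oa and Ifi30 were chosen after their values were seen. Ctsh, the gene of the protease cathepsin H, read 7.12 and 7.54 against 5.71 and 5.95 (-1.50 ± 0.21, limma adjusted p = 0.00999), and was not called without naive replicate 2 (0.142) or injected replicate 1 (0.0834).

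Ciita, the master transactivator of class II genes, read 5.26 and 5.42 in naive against 4.56 and 4.64 in injected cells (-0.74 ± 0.09, limma adjusted p = 0.00587), and a second probe set was called at -0.93. The injected and subset values lay under the array medians, and how near they lay to background was not tested. Ciita passed the filter on dim genes through the 2 naive arrays alone, so it could enter the test only as a gene high in naive cells; with Ciita and Tgfbi included, this holds for 4 of the 150 lower genes and 15 of all tested. The call was lost without naive replicate 2 (0.0919) or injected replicate 1 (0.0532). Rfx5, which binds class II promoters, read 7.88 and 8.02 against 7.38 and 7.51 and was not called (adjusted p = 0.0742). Class II promoters are known to carry a Y box, an inverted CCAAT motif bound by NF-Y, close to the start of transcription. The 100 bases before the start of the 4 called H2 class II genes are shown because all 4 were called lower. Capitals mark GATTGG, the core of that motif; all 4 windows lie on chromosome 17 of GRCm38.p6 and come from RefSeq, H2-Aa on the minus strand (chr17:34287824-34287923) and the others on the plus strand (H2-DMb2 chr17:34145149-34145248, H2-Oa chr17:34092279-34092378, H2-Ob chr17:34238805-34238904).
H2-Aa: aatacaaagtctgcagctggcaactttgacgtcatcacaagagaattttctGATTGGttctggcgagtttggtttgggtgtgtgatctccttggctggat
H2-DMb2: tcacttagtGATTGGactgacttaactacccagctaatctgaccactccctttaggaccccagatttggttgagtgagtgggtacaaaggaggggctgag
H2-Oa: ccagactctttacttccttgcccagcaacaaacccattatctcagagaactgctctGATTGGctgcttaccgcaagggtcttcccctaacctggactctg
H2-Ob: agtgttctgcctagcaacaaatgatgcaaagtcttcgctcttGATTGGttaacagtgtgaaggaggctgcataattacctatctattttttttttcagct
The first base of the motif lay 49 bases before the start in H2-Aa, 91 in H2-DMb2, 44 in H2-Oa and 58 in H2-Ob. GATTGG or its reverse complement CCAATC was present in these 4 windows, in 6 of the 7 H2 class II genes with a window, and in 2833 of all 32851 windows (8.62%). The motif was picked after the windows had been read, and a match is a description of the sequence, not evidence of binding in these cells.

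Genes that other antigen-presenting cells carry were given beside these results as whole lists. Of 7 tested B cell markers 2 were called lower, Ly86 and Cd22 (28.6%, against 1.36% of all genes). A further 10 on the array were too dim to test, among them Ms4a1, which encodes CD20, Ighm, Pax5, Ebf1 and Blnk. Their highest reading on any CD4+ array was under the array medians. Summed over the 7 tested, the level was 783.2 and 911.5 in naive against 536.7 and 574.3 in injected arrays. Ly86, the partner of a B cell and macrophage receptor of the Toll-like family, read 7.89 and 8.39 against 6.77 and 6.82 (-1.34 ± 0.22, limma adjusted p = 0.0192). Cd22, an inhibitory receptor of B cells, read 7.55 and 7.77 against 6.49 and 6.80 (-1.02 ± 0.14, limma adjusted p = 0.00901). The B cell count was 0 without naive replicate 2 and 0 without injected replicate 1.

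Of 13 tested macrophage and monocyte markers 3 were called lower (Cybb, Adgre1 and Cd300a), or 23.1% against 1.36% of all genes. The median difference was -0.49. A further 11 on the array were too dim to test, including Cd14, Lyz2, Itgam, Aif1 and the complement genes C1qa, C1qb and C1qc. The summed level of the tested markers was 1159 and 1332 in naive against 775.7 and 860.9 in injected arrays. Cybb, a subunit of the phagocyte oxidase, read 6.99 and 7.39 against 5.72 and 6.12 (-1.27 ± 0.19, limma adjusted p = 0.0133). Cd300a, an inhibitory receptor of myeloid cells, read 6.05 and 6.07 against 5.25 and 5.26 (-0.80 ± 0.09, limma adjusted p = 0.00422), a difference far larger than the gap within either pair. Adgre1, which encodes the macrophage marker F4/80, read 5.89 and 6.34 against 5.22 and 5.31 (-0.85 ± 0.15, limma adjusted p = 0.029). Leaving out naive replicate 2 brought the macrophage count to 0, and leaving out an injected array to 1 (replicate 1) or 2 (replicate 2).

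Of 16 tested dendritic cell markers 3 were called lower (Fscn1, Itgax and Cd209a), or 18.8% against 1.36% of all genes. The median difference was -0.26, and the summed level was 1384 and 1698 in naive against 960.2 and 983.8 in injected arrays. Fscn1, the gene of the actin bundler fascin, had the lowest difference of all tested genes called, at 7.47 and 8.32 in naive against 5.58 and 5.64 in injected cells (-2.28 ± 0.30, limma adjusted p = 0.00721). Its 2 other tested probe sets gave -0.05 and 0.03, so the difference is seen by 1 probe set only, and the call was lost without naive replicate 2 (0.0783) or injected replicate 1 (0.0554). Cd209a, a lectin of dendritic cells, read 6.18 and 6.59 against 5.43 and 5.29 (-1.03 ± 0.14, limma adjusted p = 0.00829). Zbtb46, a transcription factor of classical dendritic cells, read 5.67 and 5.68 against 5.70 and 5.72 and was not called (adjusted p = 0.965). Flt3, their growth factor receptor, read 6.01 and 6.36 against 5.69 and 5.59 (adjusted p = 0.0701). Without naive replicate 2 the dendritic cell count was 1, that of Itgax; it was 1 without injected replicate 1 and 5 without naive replicate 1. In a bulk sample, fewer cells of a type and less RNA per cell cannot be told apart, and the part of other cell types in the class II result was not tested.

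Of 14 tested genes of follicular helper T cells, 5 were called lower and 0 higher (35.7%, against 1.36% of all genes). The median difference was -0.57. Both injected arrays lay under both naive arrays for 12 of the 14, as for 30% of all genes. Cxcr5, the chemokine receptor for the B cell follicle, read 6.81 and 7.37 in naive against 4.98 and 5.55 in injected cells (-1.82 ± 0.23, limma adjusted p = 0.00587). Il21, a cytokine that supports germinal centre B cells, read 7.76 and 7.76 against 5.98 and 6.84 (-1.35 ± 0.27, limma adjusted p = 0.048). The naive arrays agreed closely for Il21 and the injected ones did not. Maf, a transcription factor of helper T cells, read 5.30 and 5.38 against 4.43 and 4.61 (-0.82 ± 0.11, limma adjusted p = 0.00909), with the injected values under the array medians.

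Bcl6, the repressor that directs the follicular helper fate, read 7.59 and 7.84 against 6.72 and 6.80 (-0.96 ± 0.19, limma adjusted p = 0.0473), but its other tested probe set gave 0.04. Other members were not called: Cd200 gave -0.62 (adjusted p = 0.0504), Slamf6 -0.75 (0.0742) and the costimulator gene Icos -0.36 (0.0998). Slamf1 gave -0.04 and Il4 gave -0.05. Pdcd1 was the single member called in every fit that left out an array. The count was 1 without naive replicate 2 and 2 without injected replicate 1, against 3 and 4 without naive replicate 1 and injected replicate 2. Cxcr5 was not called without naive replicate 2 (0.0783). Without that array Maf had an adjusted p of 0.13, Il21 of 0.389 and Bcl6 of 0.49, and without injected replicate 1 the values were 0.0781, 0.19 and 0.189. Without naive replicate 1 Il21 stood at 0.187 and Bcl6 at 0.106, and Bcl6 at 0.149 without injected replicate 2.

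Of 25 tested regulatory T cell genes, 5 were called lower and 0 higher (20%, against 1.36% of all genes). This list, like the others, was chosen with earlier results of these data known, so its share is a description and no independent support. Both injected arrays lay under both naive arrays for 20 of the 25, as for 30% of all genes. The median was -0.47, or -0.22 without injected replicate 1. The called members were Gpm6b, Nt5e, Fgl2, Nrp1 and Ikzf2. Nt5e, which encodes the adenosine-forming enzyme CD73, read 8.03 and 8.39 in naive against 6.82 and 6.40 in injected cells (-1.60 ± 0.20, limma adjusted p = 0.00631). Fgl2, whose product is a secreted suppressor molecule, read 5.85 and 6.32 against 4.60 and 4.46 (-1.56 ± 0.19, limma adjusted p = 0.0052). Nrp1, the coreceptor neuropilin 1 of thymus-derived regulatory T cells, read 9.33 and 9.65 against 8.03 and 8.25 (-1.35 ± 0.15, limma adjusted p = 0.00336), and a second probe set was called at -1.05. Ikzf2, the gene of the transcription factor Helios, read 9.11 and 9.57 against 8.04 and 8.21 (-1.22 ± 0.17, limma adjusted p = 0.00999), and was chosen after its values were seen. In each of these genes the groups did not overlap.

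The defining transcription factor of regulatory T cells did not pass the test. Foxp3 read 4.96 and 4.88 in naive against 4.57 and 4.70 in injected cells, near the array medians, with a 95% interval of the difference from -0.58 to 0.02 (limma adjusted p = 0.442). Ctla4, an inhibitory receptor, read 9.64 and 9.42 against 8.70 and 9.25, with an interval from -1.41 to 0.31 (adjusted p = 0.659). Il10, the suppressive cytokine, read 5.05 and 4.90 against 4.71 and 4.90, and Lag3, an inhibitory receptor for MHC class II, read 5.22 and 5.08 against 4.92 and 5.14. Their intervals ran from -0.97 to 0.63 and from -0.34 to 0.10. Of the 5 called members, 1 was called without naive replicate 2, which was Gpm6b. Without that array the adjusted p was 0.0919 for Nt5e, 0.0635 for Fgl2, 0.0519 for Nrp1 and 0.13 for Ikzf2, and without injected replicate 1 it was 0.0834 for Ikzf2. Other tested probe sets gave smaller values for Ikzf2 (-0.17), Nt5e (-0.39) and Fgl2 (-0.52).

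Of 27 tested effector and memory T cell genes, 4 were called lower and 0 higher (14.8%, against 1.36% of all genes). Both injected arrays lay under both naive arrays for 20 of the 27, as for 30% of all genes. The median was -0.49, or -0.28 without injected replicate 1. S100a4, a calcium-binding protein of memory cells, read 10.90 and 11.10 in naive against 9.27 and 10.11 in injected cells (-1.31 ± 0.22, limma adjusted p = 0.0192). Casp1, the inflammatory caspase, read 8.50 and 8.90 against 7.08 and 7.63 (-1.34 ± 0.19, limma adjusted p = 0.00999). Itgb1, the integrin beta 1 chain that pairs with CD49b, read 9.42 and 9.80 against 8.36 and 8.72 (-1.07 ± 0.19, limma adjusted p = 0.026). In each of these genes injected replicate 2 lay between injected replicate 1 and the naive arrays. Injected replicate 2 read above injected replicate 1 for 99 of the 150 lower genes (66%), against 59% of all genes.

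Il18r1, the interleukin 18 receptor, read 8.96 and 8.99 against 8.23 and 8.43 (-0.64 ± 0.09, limma adjusted p = 0.00999). Cd44, the classical surface marker of antigen-experienced T cells, read 9.29 and 9.48 against 8.61 and 8.85 and was not called (adjusted p = 0.11), nor was Cxcr3, a homing receptor of effector cells, at -1.12 ± 0.24 (adjusted p = 0.0673). Leaving out an array gave a count of 0 for naive replicate 2, 1 for injected replicate 1, 2 for naive replicate 1 and 7 for injected replicate 2. Without naive replicate 2 the adjusted p was 0.247 for S100a4, 0.142 for Casp1, 0.321 for Itgb1 and 0.142 for Il18r1. Without injected replicate 1 Casp1 stood at 0.0676, Itgb1 at 0.156 and Il18r1 at 0.0821, and without naive replicate 1 S100a4 stood at 0.0679 and Il18r1 at 0.0504.

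Of 14 tested T helper 17 genes 4 were called lower and 0 higher (28.6%, against 1.36% of all genes), with a median of -0.43. Of these, Il21 and Maf were already counted among the follicular helper genes. The other 2 were Tmem176b and Tmem176a, membrane proteins found in T helper 17 and gamma-delta T cells among others. Their means were 10.20 and 9.15 in CD25+ cells and 7.89 and 6.85 in CD49b+ cells of injected mice. Tmem176b read 8.65 and 9.31 in naive against 7.43 and 7.79 in injected cells (-1.37 ± 0.25, limma adjusted p = 0.029). These 2 genes and Maf were also the 3 called of 7 tested gamma-delta T cell markers (42.9%, median -0.15), a list on which 0 of the T cell receptor gamma and delta genes were tested. Tmem176a read 6.62 and 6.75 against 5.53 and 5.53 (-1.15 ± 0.21, limma adjusted p = 0.0318). The injected readings of Tmem176a were identical, the reason was not tested, and the size of its difference is uncertain. Its other tested probe set gave -0.43 and was not called. Il17a, the defining cytokine, read 5.50 and 5.60 against 5.30 and 5.67, with overlapping groups. The count was 0 without naive replicate 2, 0 without injected replicate 1, and 2 when either other CD4+ array was left out. Tmem176a and Tmem176b are next to each other in the genome, as are Nrp1 and Itgb1, and these were the 2 pairs of neighbours among the 148 called genes that could be placed.

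**Figure D3:**
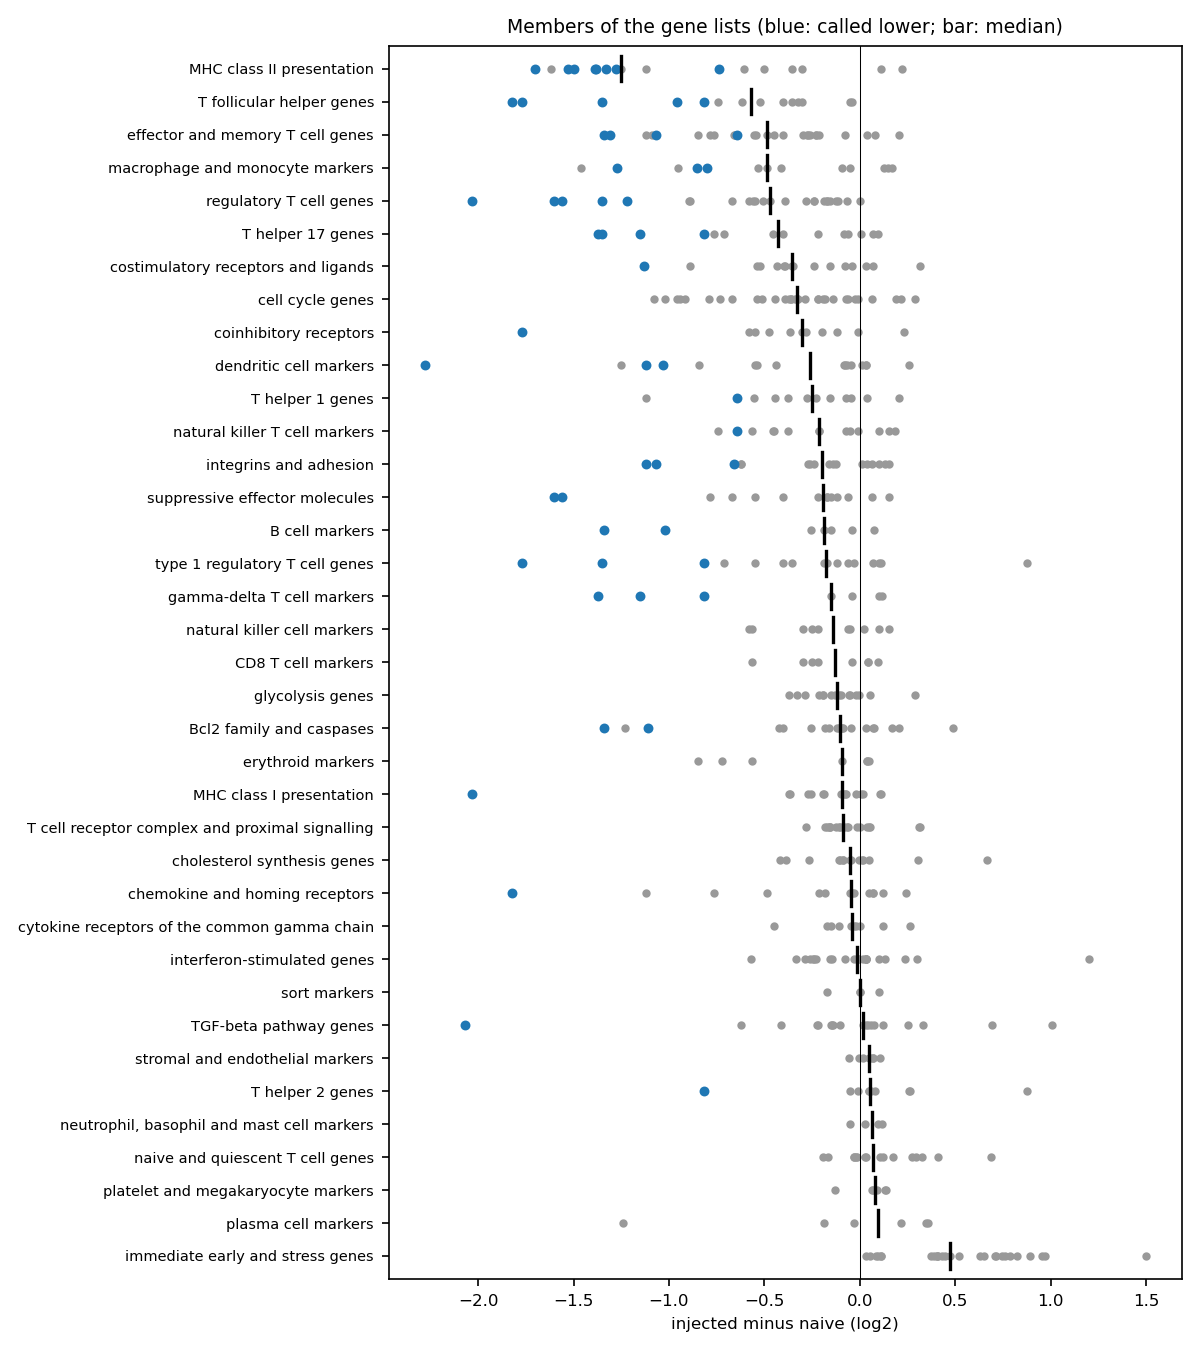
Injected minus naive on the log2 scale (horizontal axis) for every tested member of the 37 gene lists, ordered by the list's median (bar), with called genes in blue. MHC class II presentation has the lowest median at -1.25, and the immediate early and stress genes have the highest at 0.48 with 0 called.

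Lists of resting T cells and of division were not called. Of 16 tested genes of naive and quiescent T cells 0 were called, with a median of 0.07, which ranged from 0.01 without naive replicate 2 to 0.16 without naive replicate 1. Tob1, an antiproliferative protein of quiescent T cells, had the highest difference of this list, at 9.86 and 9.74 in naive against 10.43 and 10.54 in injected cells (0.69 ± 0.18, limma adjusted p = 0.116). Of 33 cell cycle genes 0 were called, with a median of -0.33. Both injected arrays lay under both naive arrays for 22 of the 33, against 30% of all genes. This list did not hold Ccnd1, which was called lower at -1.58. Mki67, a marker of dividing cells, read 7.18 and 7.62 against 6.15 and 6.49 (-1.08 ± 0.28, limma adjusted p = 0.114). Pcna, a clamp of DNA replication, read 11.34 and 11.41 against 11.47 and 11.65. Of 24 interferon-stimulated genes 0 were called, with a median of -0.01, which turned to 0.09 with the arrays centred on the median of the genes tested and to 0.04 without naive replicate 2.

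Only 3 genes were called higher, and each was under 2-fold. Mex3b, an RNA-binding protein, read 6.27 and 6.19 in naive against 7.09 and 7.22 in injected cells (0.93 ± 0.14, limma adjusted p = 0.0119). Smim13, a small membrane protein, read 6.29 and 6.30 against 7.0 and 7.04 (0.72 ± 0.13, limma adjusted p = 0.0314). Gm4129, a gene model, read 5.41 and 5.26 against 6.14 and 6.43 (0.95 ± 0.16, limma adjusted p = 0.0196). The groups did not overlap for any of the 3, but each call was lost without any 1 of the 4 CD4+ arrays. The adjusted p then ranged from 0.0504 to 0.165 for Mex3b, from 0.139 to 0.289 for Smim13 and from 0.0554 to 0.249 for Gm4129.

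The immediate early and stress genes, which switch on soon after stimulation or stress, had the highest median of the 37 lists, at 0.48. All 27 tested differences were above 0, 17 had both injected arrays above both naive arrays (63% of the list, against 18.6% of all genes), and 0 were called. The SE, which pools the spread within all 4 groups of arrays, had a median of 0.42 here against 0.12 over all genes. The list's median was 0.22 without injected replicate 2 and 0.71 without naive replicate 1. Injected replicate 2 was the highest of the 4 CD4+ arrays for 23 of the 27, and injected replicate 1 for the other 4. Tnfaip3, an inhibitor of NF-kappa B signalling, read 11.36 and 10.88 in naive against 11.77 and 12.37 in injected cells (0.95 ± 0.44, limma adjusted p = 0.42). Cd69, an early surface marker of activation, read 10.77 and 10.33 against 11.14 and 11.76 (0.89 ± 0.68, limma adjusted p = 0.692).

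The 2 injected arrays differed in which of these genes stood high. Hspa1b, the inducible heat shock protein 70, read 7.62 and 7.45 in naive arrays, 10.45 in injected replicate 1 and 7.62 in injected replicate 2. Fosb, a partner of Jun in the AP-1 factor, read 8.63 and 8.15 in naive arrays, 7.36 in injected replicate 1 and 10.37 in injected replicate 2. Nr4a2, a nuclear receptor of the same early response, read 5.69 and 5.08, then 5.18 and 7.53. The heat shock gene was thus high in the one injected array and Fosb and Nr4a2 in the other, and the remaining injected array did not exceed the higher naive array in any of the 3 by more than 0.1.

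**Figure D4:**
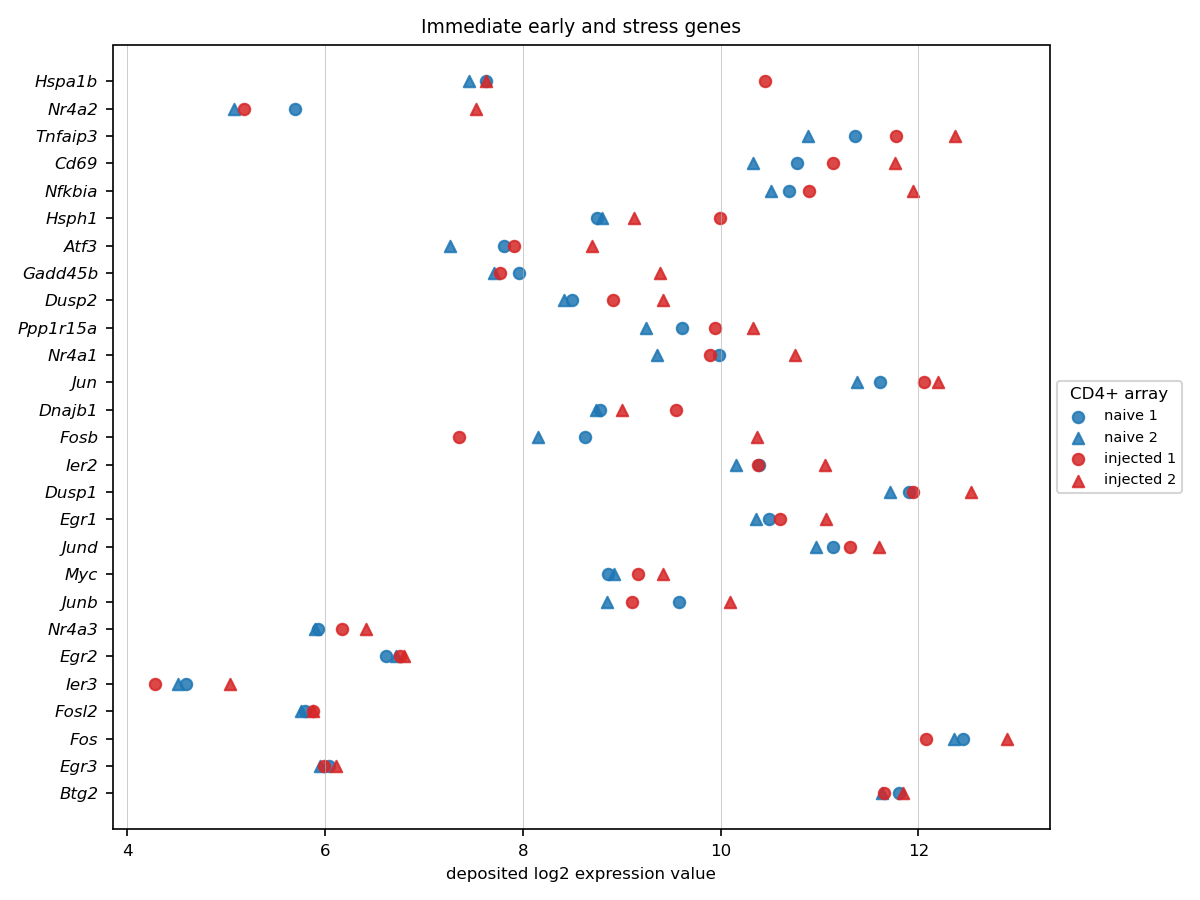
Deposited log2 values (horizontal axis) of the 27 tested immediate early and stress genes, with 1 point per CD4+ array. Injected replicate 2 (red triangle) is the highest in 23 rows, and Hspa1b is highest in injected replicate 1 at 10.45.

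Where a gene had several probe sets, these were read side by side. Of the 153 called genes, 75 had another probe set and 54 had another one that was tested. Of those 80 tested probe sets, 73 had the same sign as the main one and 38 gave at least 50% of its log2 difference. For 12 genes another probe set was itself called over all probe sets: Bcl11a, Ccnd1, Ciita, Ffar2, Gpm6b, H2-Aa, H2-DMb2, Marcks, Myo1f, Nrp1, Syngr2 and Syt11. Of them, Ciita had passed the filter on dim genes through the naive arrays alone. For 10 genes, Fscn1 and Bcl6 among them, every other tested probe set gave under 25% of the difference. Gpm6b, Marcks and Ccnd1 are both among these 12 and among the 15 called whichever CD4+ array was left out. The 3 probe sets of Marcks gave -2.01, -1.92 and -1.29, those of Gpm6b -2.03, -1.26 and -0.81, and those of Ccnd1 -1.58, -0.93 and -0.65.

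Some of the other genes called by several probe sets are known from lymphocytes and myeloid cells. Bcl11a, a transcription factor of B cell and plasmacytoid dendritic cell development, read 5.79 and 6.18 in naive against 5.10 and 4.73 in injected cells (-1.08 ± 0.15, limma adjusted p = 0.00941), and lost its call without naive replicate 2 (0.113). Ffar2, a receptor for short-chain fatty acids, read 7.32 and 7.49 against 6.54 and 6.61 (-0.83 ± 0.10, limma adjusted p = 0.00587), and lost its call without naive replicate 2 (0.0919) or injected replicate 1 (0.0527). Myo1f, an unconventional myosin of leukocytes, read 7.27 and 7.60 against 5.90 and 6.44 (-1.26 ± 0.18, limma adjusted p = 0.0101), and lost its call without naive replicate 2 (0.146) or injected replicate 1 (0.0649). Syngr2 and Syt11, both vesicle proteins, differed by -0.62 ± 0.10 and -0.53 ± 0.11.

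The lower genes stood at very different levels in the CD49b+ and CD25+ cells of injected mice, which are given as levels with no test. Both subset means lay under the array medians for 23 of the 150 lower genes (15.3%, against 4.51% of all genes) and at or above them for 117. A gene dim on all 6 subset arrays could enter the test only through the CD4+ arrays. For 4 of the lower genes it was through the naive arrays alone. The filter thus bears on this share, which is no independent sign of a difference. Mmp12 averaged 3.53 in CD49b+ and 3.55 in CD25+ cells, and Ifitm6 3.71 and 3.61, against 6.40 and 6.78 for Ifitm6 in the naive CD4+ arrays. Sash1 averaged 3.54 and 3.68, and Bcl11a 3.48 and 3.60. The subset means of these 4 genes lay under the array medians, while their naive CD4+ values lay above them.

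Other lower genes were high in a subset. S100a4 averaged 12.51 ± 0.04 in CD49b+ and 11.78 ± 0.09 in CD25+ cells (SD, n = 3 each). Ikzf2 averaged 11.52 ± 0.17 in CD25+ cells and 9.96 ± 0.17 in CD49b+ cells, and Nrp1 10.91 ± 0.16 and 10.60 ± 0.13. Of the same list of regulatory T cell genes, Nt5e averaged 9.21 in CD25+ and 7.43 in CD49b+ cells, and Fgl2 5.97 and 7.53. Gpm6b averaged 5.84 in CD25+ and 4.88 in CD49b+ cells, both under its mean of 6.31 in injected CD4+ cells. Itgb1 stood at 11.48 in CD49b+ and 9.96 in CD25+ cells, Acadl, a mitochondrial enzyme of fatty acid oxidation, at 9.06 and 7.65, and Cxcr5 at 4.27 and 7.15. H2-Aa differed most between the subsets of the class II genes named, at 7.10 ± 0.48 in CD49b+ and 10.73 ± 0.42 in CD25+ cells, where the CD4+ cells of injected mice stood at 9.14 and 9.51.

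**Figure D5:**
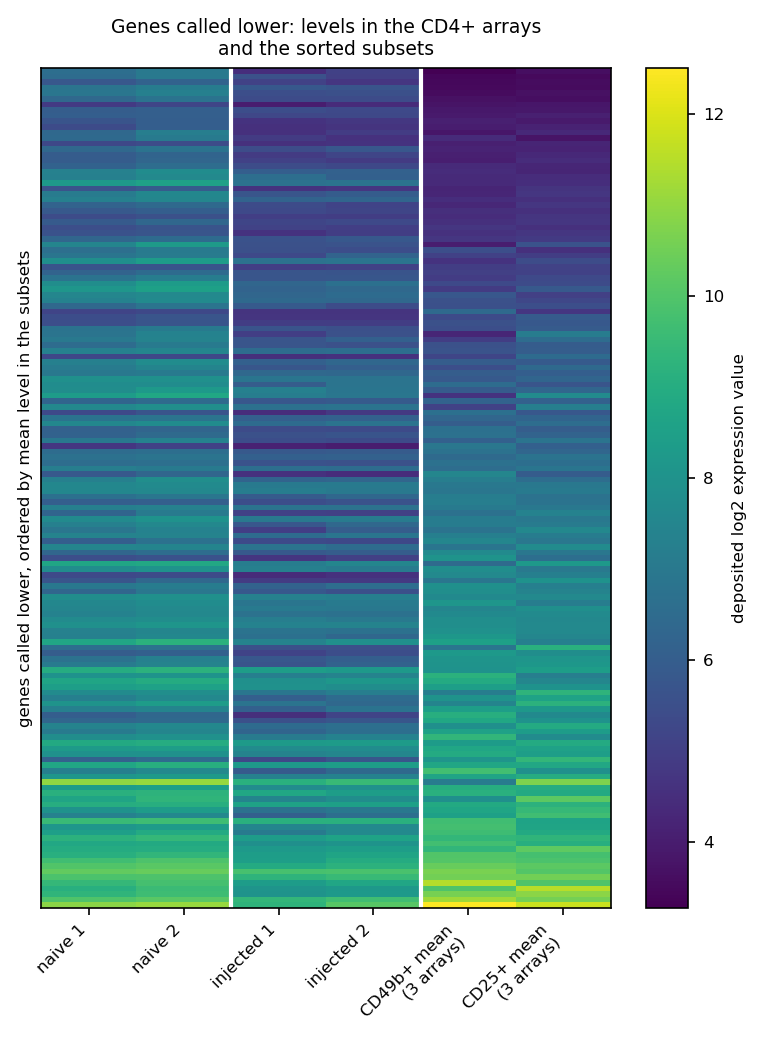
Deposited log2 values (colour) of the 150 genes called lower, 1 gene per row, in the 4 CD4+ arrays and as means of the 3 CD49b+ and 3 CD25+ arrays, with rows ordered by the mean of the subsets. The rows at the top lie under the array medians in both subsets, and the bottom row, S100a4, averages 12.51 in CD49b+ cells.

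Further named genes completed the lower side. Abcb1a, a drug efflux pump, read 6.89 and 7.36 in naive against 4.99 and 5.99 in injected cells (-1.64 ± 0.32, limma adjusted p = 0.0446). Its other tested probe set gave -0.745 and was not called. Eea1, a tether of early endosomes, read 6.26 and 7.08 against 5.06 and 5.04 (-1.62 ± 0.27, limma adjusted p = 0.0209). Plbd1, a lysosomal hydrolase, differed by -1.57 ± 0.23, the small GTPase gene Rnd3 by -1.47 ± 0.23 and Acadl by -1.37 ± 0.22. Tnfsf11, the gene of the osteoclast and dendritic cell survival factor RANKL, read 6.76 and 7.31 against 5.78 and 6.04 (-1.13 ± 0.16, limma adjusted p = 0.0103). Its other tested probe set gave -0.38 and was not called. Bcl2a1a, a survival protein of the Bcl2 family, read 9.68 and 9.94 against 8.44 and 8.96 (-1.11 ± 0.19, limma adjusted p = 0.0234), and shares near-identical sequence with other Bcl2a1 genes, so that the probe set may not tell them apart. Alcam, an adhesion molecule, differed by -0.66 ± 0.12. It read 4.95 in both injected arrays, with identical values, the reason for which was not tested. The calls of Abcb1a, Eea1, Plbd1, Rnd3, Acadl, Tnfsf11, Bcl2a1a, Alcam, Syngr2 and Syt11 were lost without naive replicate 2, with adjusted p from 0.0783 for Tnfsf11 to 0.492 for Syt11. Without injected replicate 1 they were lost as well, from 0.0851 for Tnfsf11 to 0.18 for Abcb1a. Of these 10, Abcb1a (0.089), Bcl2a1a (0.0604), Alcam (0.0621), Syngr2 (0.0517) and Syt11 (0.0984) were also not called without naive replicate 1, and Eea1 (0.0921), Rnd3 (0.054), Alcam (0.131) and Syt11 (0.214) not without injected replicate 2.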

How the data were processed

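CD4+ cells of naive and injected mice were profiled on 2 Affymetrix arrays each. Per the submitters' processing notes, the authors made the deposited log2 values of 45141 probe sets with GCRMA and Affymetrix Expression Console 1.2.1. GCRMA corrects background, normalizes arrays and summarises probes. The notes do not state if the 10 arrays were normalized in 1 run, and separate runs can move levels between groups. Array medians were 4.79 to 4.81 in the CD4+ arrays and 4.61 to 4.65 in the subsets.

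Probe sets with 1 gene symbol (28898; 551 had several and 15588 none here) gave 17097 genes, each represented by its highest mean over the 10 arrays. Genes with at least 2 arrays above the array's 50th percentile were tested (11037). The limma 3.58.1 fit in R 4.3.3 used 4 group means over 10 arrays (6 residual degrees of freedom), was two-sided, and was tested on simulated data. Arrays carry no depth, and their number limits the precision. Where 1 array was left out, the single array remaining was taken to have the spread of the other groups.

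Named genes were those called higher, the 25 lowest called genes without overlap (gene models passed over), those called in every fit without 1 CD4+ array, 8 preset genes, up to 4 called members of each of 37 lists, and genes called by several probe sets. The members, lists and rules were chosen with earlier results of these data known. Of 597 listed symbols, 518 were on the array and 428 were tested. Uncalled list members named in the text were chosen after their values were seen. Lists are described by counts and medians, with no set test. Replicate numbers were not treated as pairs: same-numbered deviations correlated at -0.21 across genes, and nothing in the labels ties them. Alternatives covered filters, normalization, the prior, probe sets, array weights, blocks and arrays left out; the crossed block and the centring on the median of the genes tested were added after seeing the data.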

Additional observations from a re-analysis of the deposited data

How the results depend on the processing

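The count of genes called lower stayed within 1.5 times of 150 (from 103 to 162; the lowest counts genes by their chosen probe set when every probe set was tested, where 130 probe sets were called) under 3 other filters on dim genes, 3 other scalings, another prior, other uses of probe sets and without replicate 3 of both subsets. It was 68 at 2-fold or more, 302 with array weights, 320 with the replicate number as a block over 10 arrays, where 7 cell cycle genes were among them, and between 16 and 114 with 1 CD4+ array left out. It was 0 with the 4 CD4+ arrays alone, 0 with the replicate block on them and 0 with the numbers crossed, against 1305, 1083 and 1461 genes lower at an unadjusted p under 0.05. The 3 genes called higher became 7 with quantile normalization, 7 with a trended and robust prior, 5 with a gene's probe sets averaged, 26 with array weights, 17 without replicate 3 of CD49b+ and CD25+ cells, 57 with the replicate block over 10 arrays and 16 with the arrays centred on the median of the genes tested. The count of genes called higher was 0 at 2-fold or more. It was also 0 with the 4 CD4+ arrays alone, with the replicate block on them or with crossed numbers. At an unadjusted p under 0.05, limma gave 432, 312 and 451 higher in these fits. The calls of Mex3b, Smim13 and Gm4129 were lost with any 1 CD4+ array left out. The fits of 4 arrays leave fewer degrees of freedom; the cause of the other changes was not tested. No named difference changed sign while called. Of the 57 named called genes, the fit kept 42 when naive replicate 1 was left out, 15 for naive replicate 2, 23 for injected replicate 1 and 44 for injected replicate 2. The injected mean lay under the array medians for 16 of the 150 lower genes. How near these readings lay to background was not tested, so the size of these differences is uncertain.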
